A study of Mus musculus with 19 samples.

Results

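The p53 target set followed here comprised 31 mouse genes, 31 of the 22878 gene symbols in the expression tables: Trp53, which encodes p53 itself, and 30 genes known to be regulated by p53 or to work beside it. They were chosen by name, and each is represented by the RefSeq transcript with the most reads over all 16 RNA libraries. By role, 4 are p53 and its regulators, 8 act in cell cycle arrest and growth control, 10 in cell death, 5 in DNA repair, and 4 have other roles. Of the 31 genes, 29 passed the filter on low values in both experiments. Gdf15, a secreted stress cytokine, had 17 reads in all 16 libraries together, and Dram1, a lysosomal membrane protein linked to autophagy, had 112 reads, and neither was tested.

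p53 is a transcription factor that is kept scarce by the ubiquitin ligase Mdm2 and is stabilised by DNA damage and other stresses. It binds a response element made of repeated short units and activates genes for growth arrest, apoptosis and repair, among them Mdm2, which closes a negative feedback loop. In activated T cells, which divide fast, the pathway limits proliferation and removes damaged cells. Much of its regulation is at the level of the p53 protein, so the level of Trp53 RNA is not a measure of its activity.

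The RNA came from mouse T helper 2 (Th2) cells, CD4 T cells that produce interleukins 4, 5 and 13, in 2 experiments with 4 groups of 2 libraries each. In the Bcl11b experiment all cells were naive CD4 T cells of Bcl11b fl/fl-CreERT2 mice, so the WT cultures carried the floxed alleles and the Cre transgene as well. Bcl11b is a zinc-finger factor needed for T cell identity. Early cultures spent 4 days in Th2 medium. Late cultures spent 4 days in it, rested for 1 day with IL-2 and returned to Th2 medium for 4 days. The KO cultures had 4-hydroxytamoxifen (4-OHT), which activates CreERT2, during the 4 days of the early culture or the last 4 days of the late culture. The WT cultures had none, so drug, Cre activity and loss of Bcl11b cannot be told apart. The Gata3 experiment compared early and late Th2 cells, WT and KO for Gata3, the factor that directs Th2 differentiation, and the sources used here do not state its alleles, Cre or culture. Ages were not given, and the labels do not say that replicates were separate cultures or animals, so p-values measure only the spread between these samples. Bcl11b and GATA3 binding was mapped by chromatin immunoprecipitation in late WT Th2 cells with 1 library per antibody.

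The libraries held between 4687559 and 14577958 gene reads. In the Bcl11b experiment, both early WT libraries were unlike the rest. Genes held 20.7% and 16.9% of the read total that RPKM values imply (40.7% to 60.3% in the other 14 libraries). Odorant and vomeronasal receptor genes, known from sensory neurons, had 3.77 and 4.86 reads per kb over 1458 transcripts (at most 0.507 elsewhere). In the Gata3 experiment, early and late WT libraries of the same replicate number resembled each other more than replicates of a group did. The typical squared difference per gene was 2.78 times counting noise between early and late WT replicate 1 and 2.00 times between early and late WT replicate 2, against 5.22 and 4.94 times between the replicates of the early and late WT groups. RNA of the targeted genes remained in KO cells. Bcl11b fell in early KO cultures by 1.08 ± 0.28 (log2, SE) and was at 78.1 and 141.7 CPM in late KO against 148 and 189 CPM in late WT, a difference of -0.59 ± 0.28 that missed the threshold (adjusted p = 0.421). Gata3 fell in early (-1.54 ± 0.11) and late (-0.41 ± 0.11) Gata3 KO cultures. The sources used here do not state which exons were removed, and reads outside them do not check a deletion. All 6 T cell markers and all 4 Th2 markers had reads in each comparison.

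Upstream sequences are shown for 4 members that rose in Bcl11b KO cultures and that hold the p53 response element decamer, the 10-base unit that p53 recognises, within 250 bases before a RefSeq start (GRCm38.p6, which is mm10). Capitals mark each match to RRRCWWGYYY without mismatch (R is A or G, W is A or T, Y is C or T). For Mdm2 (chr10:117710759-117711008, minus strand), Bax (chr7:45466899-45467148, minus strand) and Ppm1d (chr11:85311004-85311253, plus strand), the match began 186, 201 and 132 bases before the start. Cdkn1a (chr17:29090729-29090978, plus strand) had 2 matches that began 73 and 51 bases before the start, with at most 13 bases between them. The 10 bases that directly follow the second match differ from the pattern only at their first base, and are not marked.
Mdm2: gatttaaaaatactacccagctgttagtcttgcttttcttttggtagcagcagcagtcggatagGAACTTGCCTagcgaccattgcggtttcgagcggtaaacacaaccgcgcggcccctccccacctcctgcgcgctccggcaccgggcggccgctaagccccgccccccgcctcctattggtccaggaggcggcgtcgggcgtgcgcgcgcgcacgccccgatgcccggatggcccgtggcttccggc
Cdkn1a: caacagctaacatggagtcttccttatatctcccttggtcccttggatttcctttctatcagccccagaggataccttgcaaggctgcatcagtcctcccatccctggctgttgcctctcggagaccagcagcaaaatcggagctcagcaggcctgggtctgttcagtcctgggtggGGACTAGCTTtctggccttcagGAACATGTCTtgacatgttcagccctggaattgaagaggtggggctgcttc
Bax: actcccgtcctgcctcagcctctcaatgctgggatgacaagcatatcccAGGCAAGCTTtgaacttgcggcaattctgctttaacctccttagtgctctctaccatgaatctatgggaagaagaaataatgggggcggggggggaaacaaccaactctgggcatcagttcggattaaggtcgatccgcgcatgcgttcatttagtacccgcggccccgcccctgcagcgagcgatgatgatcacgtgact
Ppm1d: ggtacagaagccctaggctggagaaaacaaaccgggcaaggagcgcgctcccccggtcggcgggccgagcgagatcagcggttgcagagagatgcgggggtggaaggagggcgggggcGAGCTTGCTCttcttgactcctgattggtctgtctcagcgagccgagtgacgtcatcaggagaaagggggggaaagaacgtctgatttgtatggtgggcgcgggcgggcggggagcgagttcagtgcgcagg
RefSeq windows of 300 bases (250 before to 50 after a start) were at hand for 24 of the 31 members. The decamer, whose consensus is the same on both strands, lay in the windows of 13 of these 24 genes (54.2%), against 9.55% of 27025 genes with a window. A pair of decamers with at most 13 bases between them occurred in 1 member, Cdkn1a, and in 20 genes in all (0.074%). Besides the 4 shown, the decamer lay in windows of Ccng1, Rps27l, Gadd45a, Aen and Ei24, which rose in Bcl11b KO cultures. It also lay in windows of Ckap2, Trp53, Sesn1 and Polk, which did not. Phlda3, Plk2, Ercc5 and Btg2 rose without a match in their windows. A match in these letters is a description of the sequence and not a measured binding site. Windows were not used here for Xpc, Ddb2, Zmat3, Rrm2b, Pmaip1, Perp and Trp53inp1.

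Levels are CPM, read counts divided by library size and scaled over all 16 libraries, and levels of different genes are compared only as CPM per kb of transcript. In the Bcl11b experiment Cdkn1a had the highest mean per kb of the 31 genes in all 4 groups (315 in early WT, 620 in early KO, 518 in late WT and 855 in late KO). In the Gata3 experiment Rps27l, a ribosomal protein S27 paralogue, was highest per kb in all 4 groups (726 to 1072). Rps27l is close in sequence to Rps27, and the sources used here do not state how reads matching both were counted. Bbc3, which encodes the apoptosis inducer PUMA, ranked 21 to 29 of 31, at 2.35 to 9.29 CPM per kb.

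Early Bcl11b KO cultures had more RNA of most p53 targets than early WT cultures. Of the 29 members tested, 16 rose and 1 fell (edgeR's quasi-likelihood test, adjusted p under 0.05 over all genes), where 11.0% of the 10870 genes tested rose and 10.1% fell. The median log2 change was 0.99 over the members and 0.03 over all genes. In 20 members both KO libraries lay above both WT libraries (29.9% of all genes) and in 1 both lay below (24.3%). All 17 calls rest on the pair of early WT libraries with few gene reads. With the receptor genes' reads per kb in each library subtracted from every gene, 16 members rose and 1 fell, and the member median became 1.26. This takes most from the early WT libraries, which favours rises, so it cannot test whether the rises depend on those libraries.

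Among the regulators, Mdm2 was at 271 and 170.4 CPM in early WT and at 680.2 and 807 CPM in early KO, and the groups were far apart. It rose 3.31-fold (1.73 ± 0.22 on the log2 scale, adjusted p = 0.000791). Ppm1d, the phosphatase Wip1 that switches p53 signalling off, was at 20.5 and 45.1 CPM in WT and 97.1 and 102 CPM in KO, and rose by 1.58 ± 0.35 (adjusted p = 0.0109). Trp53 itself had 92.8 and 129 CPM in the WT libraries, and the KO libraries enclosed them with 82.3 and 176 CPM. Its difference was 0.20 ± 0.31 (adjusted p = 0.687). Mdm4, the Mdm2 partner that blocks p53, differed by 0.42 ± 0.29 (adjusted p = 0.347).

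Of the 8 arrest genes 4 rose and 1 fell. Cdkn1a, the cyclin-dependent kinase inhibitor p21, was at 628 and 574 CPM in early WT and at 1095 and 1275 CPM in early KO, without overlap. It rose 1.94-fold (0.96 ± 0.20, adjusted p = 0.00772). Ccng1, cyclin G1, a regulator of Mdm2, went from 269.8 and 407 CPM to 1272 and 1251 CPM, a change of 1.88 ± 0.23 (adjusted p = 0.000577). Gadd45a, a stress sensor that binds p21 and PCNA, was at 2.03 and 6.56 CPM in WT and 16.6 and 28.4 CPM in KO, and Plk2, a polo-like kinase, at 4.26 and 12.5 CPM in WT and 27.2 and 40.1 CPM in KO. These low WT levels rose by 2.37 ± 0.60 and 1.98 ± 0.45 (adjusted p = 0.0202 and 0.0120). The WT values are 10 and 32 reads over 1224 bases for Gadd45a and 21 and 61 reads over 2801 bases for Plk2. The receptor genes had 3.77 and 4.86 reads per kb in those libraries, so the sizes of both rises rest on values near the floor. Ckap2, a spindle protein expressed in dividing cells, fell by 0.80 ± 0.23 (adjusted p = 0.0347), from 75.3 and 67.7 CPM to 40.7 and 42.6 CPM. Btg2 (0.30 ± 0.24), Tob1 (0.84 ± 0.65) and Plk3 (1.56 ± 0.65), 3 further growth regulators, did not pass the test.

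The death genes had the largest share of calls, 7 of 9 tested. Pmaip1, which encodes the BH3-only protein Noxa, had 3.65 and 7.38 CPM in early WT cells, and its 35.8 and 31.8 CPM in early KO cells gave a 6.03-fold rise (2.59 ± 0.36, adjusted p = 0.00115). Its early WT values are 18 and 36 reads over 2654 bases, so the size of this rise also rests on values near the floor. Bax, the pore-forming executioner of mitochondrial apoptosis, went from 26.6 and 39.0 CPM to 81.9 and 115.6 CPM (1.57 ± 0.28, adjusted p = 0.00415). Bbc3 was low in both groups, at 4.26 and 6.15 CPM in WT and 8.84 and 12.1 CPM in KO, and its difference of 0.99 ± 0.53 missed the threshold (adjusted p = 0.210). The other rises were Phlda3, an inhibitor of Akt signalling (2.05 ± 0.37), the nuclease Aen (1.91 ± 0.38), the membrane protein Perp (1.81 ± 0.47), Trp53inp1, a p53-induced nuclear protein (1.48 ± 0.17), and Ei24, an ER-localised protein (0.95 ± 0.23). Phlda3 was near the floor as well, with 16 and 26 reads over 1467 bases in early WT. Apaf1, the apoptosome scaffold, had 204 and 181 CPM in WT libraries, 148 and 279 CPM in KO libraries, and did not pass the test.

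Zmat3, a zinc-finger RNA-binding protein, had the smallest p of all members. Its early WT libraries had 119.7 and 172 CPM and its early KO libraries 771 and 689 CPM, a 4.93-fold rise (2.30 ± 0.20, adjusted p = 0.000119). Rps27l rose by 1.38 ± 0.24 (adjusted p = 0.00325). Of the 5 repair genes only Ercc5, an excision repair endonuclease, was called (0.96 ± 0.26, adjusted p = 0.0283). Xpc (-0.49 ± 0.52), Ddb2 (0.15 ± 0.49), Polk (0.28 ± 0.22), Rrm2b (0.54 ± 0.44) and the stress-response gene Sesn1 (-0.29 ± 0.40) did not pass the test. The plot of effects over 29 genes shows all 9 death genes and all arrest genes but Ckap2 to the right of 0 in this comparison, called or not.

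**Figure D1:**
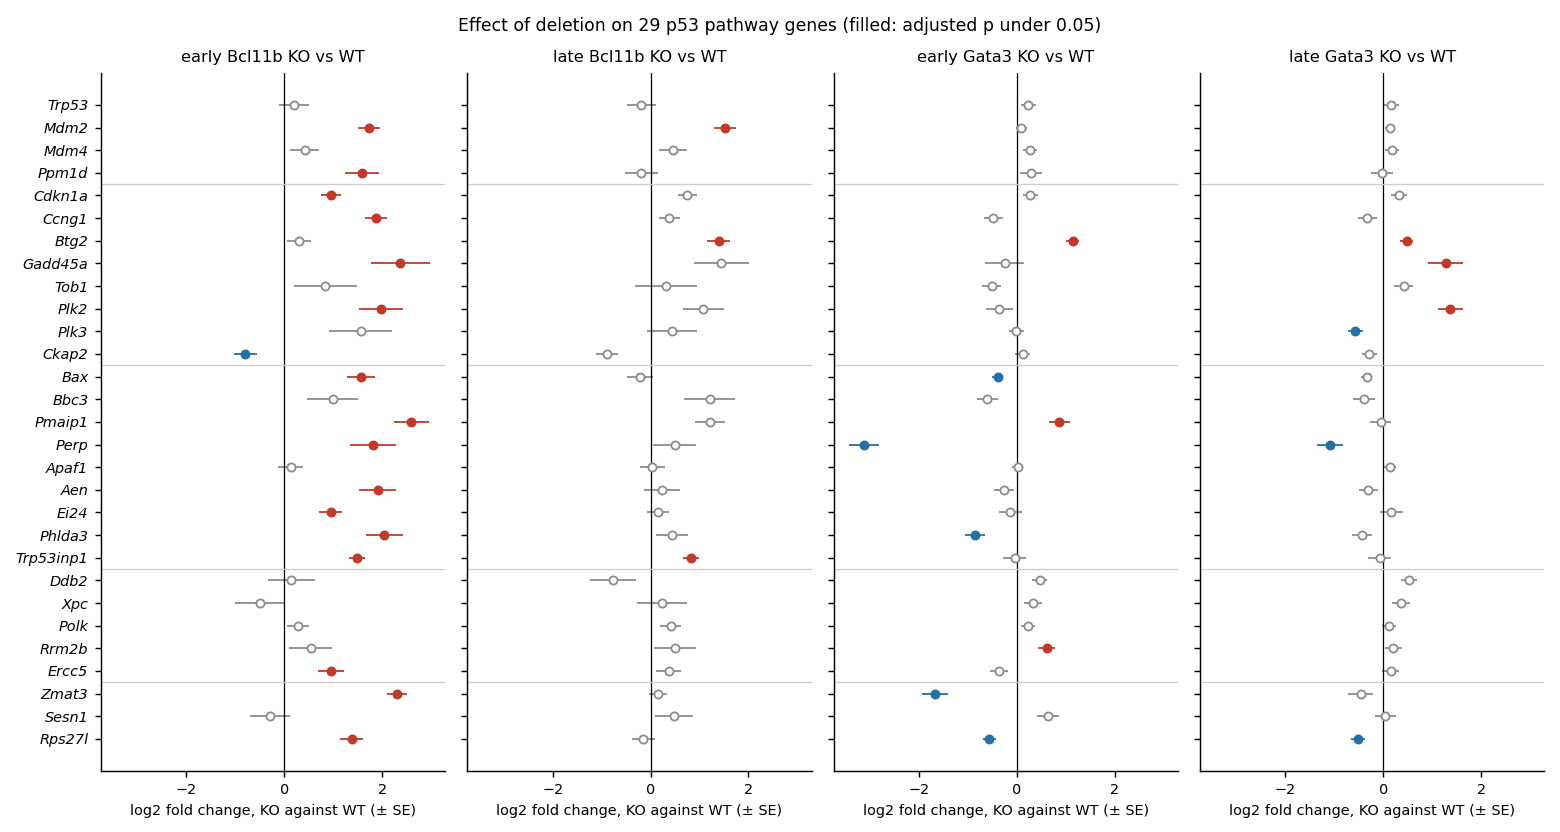
Log2 fold change of KO against WT for 29 p53 pathway genes (rows, in blocks of regulators, arrest, death, repair and other roles) in 4 comparisons (panels). Points are edgeR estimates, bars are standard errors, and filled points passed an adjusted p of 0.05. In these fits of 8 libraries per experiment, rises fill the early Bcl11b panel (16 of 29), whereas the late Bcl11b panel has 3. The Gata3 panels hold rises and falls.

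Of the 17 early calls, 12 held whichever library of the experiment was left out: Aen, Bax, Ccng1, Cdkn1a, Mdm2, Phlda3, Plk2, Pmaip1, Ppm1d, Rps27l, Trp53inp1 and Zmat3. Ei24 (lost without early WT replicate 1 or early KO replicate 1), Gadd45a (without early WT replicate 1 or early KO replicate 2), Perp (without early WT replicate 2 or early KO replicate 2), Ercc5 (lost in 6 of 8 such fits) and Ckap2 (lost in 7 of 8) did not. Their highest adjusted p was 0.0867 for Ei24, 0.0670 for Gadd45a, 0.0955 for Perp, 0.158 for Ercc5 and 0.0781 for Ckap2. On the deposited RPKM scale, limma moved the median of all 10870 genes to 0.86. It called 25 of 29 members up, where 6554 of the 10870 genes were called up, and Ckap2 was then at 0.30. The share of calls that were rises went from 52.1% to 95.1% on that scale. The median of the members lay 0.96 above that of all genes in edgeR and 1.03 above it on the RPKM scale.

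Cell type markers also differed between these groups. The 6 T cell markers summed to 2991 and 2498 CPM in early WT and 4645 and 4143 CPM in early KO, and 3 of them rose. The 4 Th2 markers summed to 566 and 592 CPM in WT and to 932 and 930.4 CPM in KO, and 2 of them, Il13 and Il5, rose. The summed level of 4 mast cell and basophil markers was 3.65 and 11.1 CPM in early WT and 44.7 and 42.5 CPM in early KO, with Mcpt8 at 0. The 4 CD8 and NK cell markers summed to 46.9 and 41.6 CPM in WT and 98.1 and 82.4 CPM in KO, and 5 B cell markers to 98.8 and 84.9 CPM in WT and 94.8 and 129.7 CPM in KO. The macrophage markers (5 of 6 found) were at 19.7 and 57.2 CPM in WT and 18.9 and 16.4 CPM in KO, and erythroid and neutrophil markers (4 of 5 found) at 2.03 and 0.615 CPM in WT and 9.87 and 9.95 CPM in KO, with S100a8, S100a9 and Elane at 0. Their part in the changes of the p53 targets was not tested. In these bulk samples fewer cells of a type and less RNA per cell cannot be told apart.

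Late Bcl11b KO cultures showed a smaller set of calls in the fit of the experiment's 8 libraries. Of 29 members 3 rose and none fell, against 1.69% and 0.524% of all genes. An unadjusted edgeR p under 0.05 was reached by 9 members and by 1410 of all 10870 genes. The median member change was 0.41 (all genes -0.02). Both KO libraries lay above both WT libraries in 15 members (24.4% of all genes) and below in 4 (30.0%). The smaller number of late calls depended on the fit. With only the 4 libraries compared, 10 members rose and none fell early, where 452 of 9710 genes rose and 596 fell. In the same setting 8 members rose and 2 fell late, where 941 of 10052 genes rose and 613 fell.

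Mdm2 was again raised in KO. Its late WT libraries had 472 and 414 CPM and its late KO libraries 1350 and 1140.3 CPM, the highest of the 16 libraries. It rose 2.87-fold (1.52 ± 0.22, adjusted p = 0.00855). Btg2, an antiproliferative co-factor of mRNA decay, went from 62.6 and 50.1 CPM to 134 and 155 CPM (1.39 ± 0.24, adjusted p = 0.0164). Trp53inp1 went from 224 and 197 CPM to 384 and 347 CPM (0.82 ± 0.16, adjusted p = 0.0286). None of the 3 calls held in every fit with a library left out. Mdm2 was lost without late WT replicate 1, late WT replicate 2 or late KO replicate 1 (adjusted p up to 0.117), and the others without any one of the 4 late libraries (up to 0.207 for Btg2 and 0.285 for Trp53inp1). Without the early WT libraries in the fit, a setting added after the data were seen, 5 members rose and 1 fell.

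Several members with higher late KO levels missed the threshold. Cdkn1a was at 826 and 1154 CPM in late WT and 1441 and 1824 CPM in late KO (0.75 ± 0.20, adjusted p = 0.0867). Pmaip1 was at 71.1 and 49.4 CPM in WT and 151 and 123 CPM in KO (1.22 ± 0.31, adjusted p = 0.0761). Bbc3 went from 4.69 and 4.61 CPM to 11.0 and 10.03 CPM (1.21 ± 0.51, adjusted p = 0.340), without overlap of the groups. Ckap2 went the other way, from 96.8 and 78.2 CPM in WT to 47.9 and 44.7 CPM in KO (-0.89 ± 0.23, adjusted p = 0.0835). Ddb2 was lower in KO too (-0.77 ± 0.47, adjusted p = 0.596), and neither gene's groups overlapped. Bax (-0.22 ± 0.27, adjusted p = 0.897) and Trp53 (-0.19 ± 0.30, adjusted p = 0.932) had late KO levels close to late WT. The Th2 markers summed to 2896 and 3541 CPM in late WT and 5434 and 5118 CPM in late KO, and the T cell markers to 5552 and 4958 CPM in WT and 8300.4 and 7363 CPM in KO. The summed B cell markers were 5.51 and 4.61 CPM in late WT and 20.7 and 32.5 CPM in late KO, and the macrophage markers 15.1 and 11.9 CPM in WT and 39.9 and 42.4 CPM in KO. The mast cell markers were at 0.521 and 0.151 CPM in WT and 3.77 and 1.96 CPM in KO. Their part in the late changes was not tested.

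**Figure D2:**
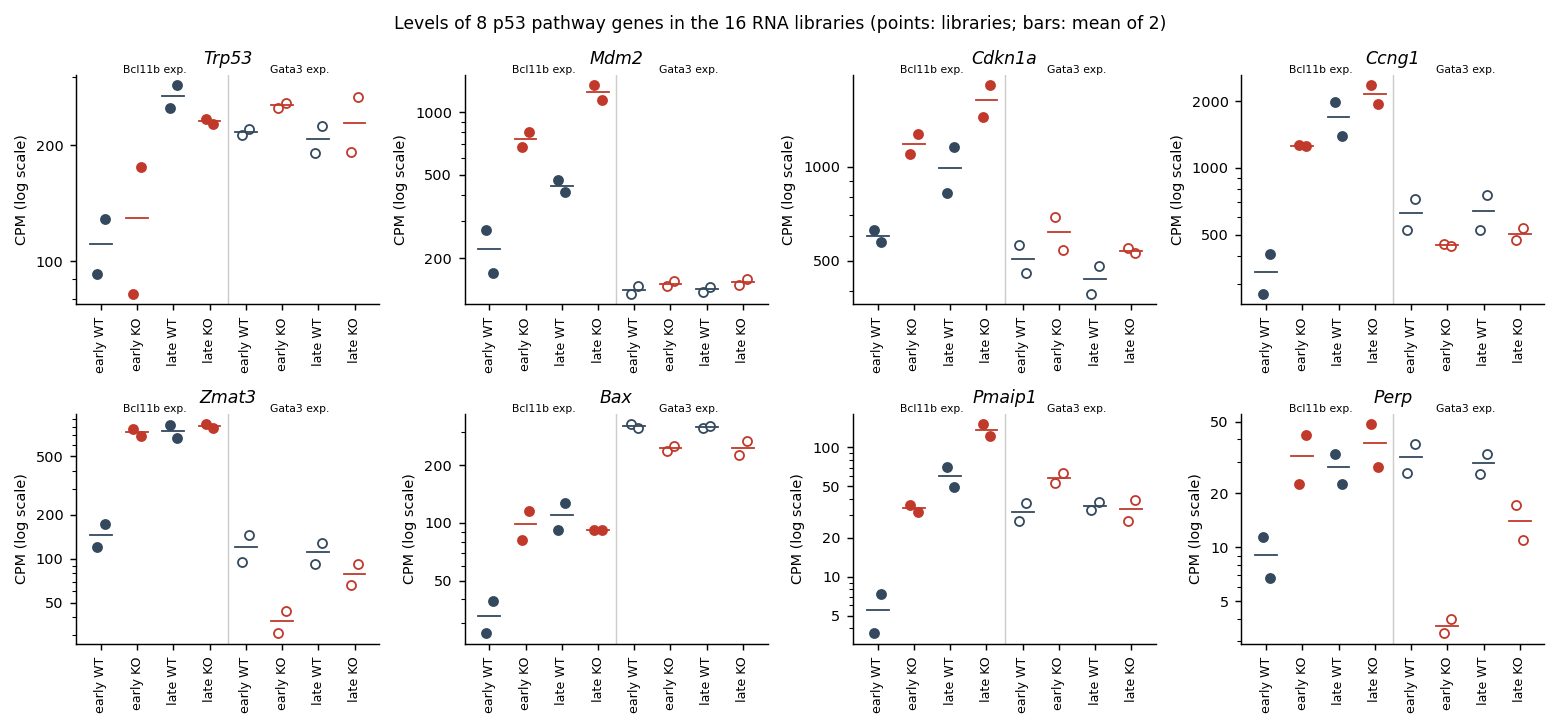
CPM (log axis) of 8 p53 pathway genes in the 16 libraries. Points are libraries (dark: WT, red: KO, filled: Bcl11b experiment, open: Gata3 experiment) and bars are means of 2. Zmat3 is low in early Bcl11b WT alone within its experiment (119.7 and 172 CPM), whereas Mdm2 in that experiment is higher in KO than in WT at both stages.

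The difference between the late and the early Bcl11b effect passed the test in 4 members, each with a smaller late effect, where 1.29% of all genes had a difference in that direction and 1.95% in the other. They were Zmat3 (-2.16 ± 0.27, adjusted p = 0.00522), Ccng1 (-1.49 ± 0.31, adjusted p = 0.0336), Rps27l (-1.53 ± 0.33, adjusted p = 0.0367) and Bax (-1.79 ± 0.39, adjusted p = 0.0387). Of these only the difference for Zmat3 was called whichever library was left out, and the adjusted p of the others reached 0.195 (Ccng1), 0.217 (Rps27l) and 0.198 (Bax). They were lost without any one of the late libraries or without early KO replicate 2, and some without other early libraries. Zmat3 had 821 and 666 CPM in late WT and 829 and 783 CPM in late KO, next to 771 and 689 CPM in early KO. The difference for Mdm2 was not called, and its effects were 1.73 ± 0.22 early and 1.52 ± 0.22 late.

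Within the WT cultures of the Bcl11b experiment, 16 members were higher late than early and none was lower (19.7% and 22.0% of all genes, median 0.82). Zmat3 (2.23 ± 0.20), Ccng1 (2.20 ± 0.23), Pmaip1 (3.33 ± 0.36), Phlda3 (2.98 ± 0.38), Ei24 (1.75 ± 0.24) and Plk3 (4.43 ± 0.65) had the smallest p, with adjusted p between 1.93e-05 and 0.000480. Plk3, a stress-responsive polo-like kinase, had 0.609 and 5.95 CPM in early WT and 64.1 and 88.7 CPM in late WT. Its early WT values are 3 and 29 reads over 2367 bases. The receptor genes had 3.77 and 4.86 reads per kb in those libraries, so the size of this change rests on values near the floor. The same limit holds for Pmaip1 (18 and 36 reads in early WT) and Phlda3 (16 and 26 reads). This comparison shares the early WT libraries with the early KO comparison, so that a low value in them raises both. Of the members 12 rose in both, and the number of all genes that did so was not counted. Cell type markers moved with stage as well: 3 of 4 Th2 markers rose (median 3.46), 4 of 6 T cell markers rose and 1 fell, all 3 B cell markers tested fell (median -4.22), and Cd8a, Cpa3, Hba-a1, Fcgr3 and Itgax fell. Their part in the change of the members was not tested.

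The KO cultures of the 2 stages share no library with that comparison. From early to late KO, 9 members rose and 3 fell (17.0% and 19.6% of all genes). The smallest p were those of Aen, Pmaip1, Plk3, Ei24, Btg2 and Phlda3. Pmaip1 (1.96 ± 0.32), Plk3 (3.30 ± 0.58), Ei24 (0.96 ± 0.23), Btg2 (1.00 ± 0.24) and Phlda3 (1.38 ± 0.33) were higher late. Aen was lower, at 71.2 and 121 CPM in early KO and 15.7 and 19.2 CPM in late KO (-2.53 ± 0.38, adjusted p = 0.000668). Only Aen, Plk3 and Pmaip1 were called whichever library was left out, and without late KO replicate 1 or late KO replicate 2 just 4 of the 12 calls were made. Of the markers, 3 of 4 Th2 genes and 4 of 6 T cell genes rose from early to late KO, and Cd5, Cd3d, 2 of 3 B cell markers, Cd8a, Cd8b1, Hba-a1 and Cpa3 fell, while the macrophage marker Lyz2 rose. Their part was not tested either.

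The p53 set had no common direction in early Gata3 KO cultures. Of 29 members 3 rose and 5 fell, where 14.0% of 10601 genes rose and 16.8% fell, and the median change was -0.01 for the members and 0.00 for all genes. In 10 members both KO libraries lay above both WT libraries (33.4% of genes) and in 9 below (33.8%).

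The largest change was in Perp, a tetraspan membrane protein of apoptosis and cell adhesion. It was at 26.0 and 37.4 CPM in early Gata3 WT and at 3.32 and 3.96 CPM in early KO, with a fall of 3.13 ± 0.30 on the log2 scale (8.74-fold, adjusted p = 3.24e-05). Zmat3 also fell, from 94.8 and 145 CPM to 31.1 and 44.4 CPM (-1.67 ± 0.26, adjusted p = 0.000917). Btg2 rose from 65.9 and 60.9 CPM to 137 and 143 CPM (1.14 ± 0.13, adjusted p = 0.000118). These 3 calls held whichever library was left out. The other calls, Phlda3 (-0.85 ± 0.20), Pmaip1 (0.87 ± 0.21), Rps27l (-0.56 ± 0.14), Bax (-0.39 ± 0.11) and the ribonucleotide reductase subunit Rrm2b (0.61 ± 0.18), were each lost in at least 2 of those fits, all of them when early libraries were left out (adjusted p up to 0.0830, 0.0822, 0.104, 0.158 and 0.116). The 8 calls became 4 without early WT replicate 2, 4 without early KO replicate 1 and 3 without early KO replicate 2. Mdm2 was at 135 and 147 CPM in WT and 146 and 154 CPM in KO (0.09 ± 0.11, adjusted p = 0.573). Cdkn1a (0.27 ± 0.16), Trp53 (0.23 ± 0.15) and Bbc3 (-0.61 ± 0.22, adjusted p = 0.0648) did not pass the test.

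In late Gata3 KO cultures 3 members rose and 3 fell, against 8.44% and 5.59% of all genes (median 0.12, all genes 0.00). Both KO libraries lay above both WT libraries in 10 members (26.7% of genes) and below in 8 (27.3%). Plk2 was at 12.5 and 20.3 CPM in late WT and at 41.1 and 42.6 CPM in late KO and rose by 1.37 ± 0.26 (adjusted p = 0.00749). Perp fell again, from 25.7 and 33.2 CPM to 17.1 and 11.0 CPM (-1.09 ± 0.26, adjusted p = 0.0220). Gadd45a rose from 5.17 and 6.86 CPM to 19.98 and 9.59 CPM (1.28 ± 0.36, adjusted p = 0.0442) and Btg2 by 0.48 ± 0.13. Rps27l (-0.51 ± 0.14) and Plk3 (-0.57 ± 0.15) fell. Only the rise of Plk2 held whichever library was left out. Perp was lost without late WT replicate 2 or late KO replicate 2 (adjusted p up to 0.137), and Btg2, Gadd45a, Plk3 and Rps27l in 4 or more of 8 fits (up to 0.178, 0.270, 0.166 and 0.237). With late WT replicate 2 left out, 1 of the 6 calls was made. Mdm2 (0.14 ± 0.11), Cdkn1a (0.32 ± 0.16), Bax (-0.34 ± 0.11, adjusted p = 0.0769), Bbc3 (-0.39 ± 0.22) and Trp53 (0.16 ± 0.15) did not pass the test. The Th2 markers summed to 1966 and 1998 CPM in early WT, 431 and 419 CPM in early KO, 2151 and 2041 CPM in late WT and 1162 and 1089 CPM in late KO. The 4 CD8 and NK markers summed to 11.5 and 8.25 CPM in early WT, 79.4 and 75.9 CPM in early KO, 11.9 and 10.9 CPM in late WT and 24.4 and 19.5 CPM in late KO, with Ncr1 at 0 throughout. Their part in these changes was not tested.

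The late Gata3 effect differed from the early effect in 3 members (2 towards a higher late value, 7.74% of genes, and 1 towards a lower one, 4.47%). Perp differed by 2.04 ± 0.40 (adjusted p = 0.00950), Plk2 by 1.73 ± 0.38 (adjusted p = 0.0169) and Btg2 by -0.66 ± 0.19 (adjusted p = 0.0478). The call of Perp did not hold without early KO replicate 1 (adjusted p = 0.0578), that of Plk2 without early WT replicate 2, early KO replicate 1 or early KO replicate 2 (up to 0.0779), and that of Btg2 in 7 of 8 fits (up to 0.161). In the WT cultures of this experiment no member, and 0 of 10601 genes (0.0%), was called between late and early in edgeR or DESeq2. No member and 128 genes had an unadjusted edgeR p under 0.05, and DESeq2 gave 69 genes. The early and late WT libraries of this experiment are those that resembled each other by replicate number. Between late and early KO, 5 members rose and 2 fell (14.3% and 10.3% of genes). Plk2 (1.82 ± 0.27), Perp (1.93 ± 0.31), Gadd45a (1.66 ± 0.37) and Zmat3 (1.10 ± 0.27) were higher late and Btg2 (-0.52 ± 0.13) and Pmaip1 (-0.77 ± 0.21) lower. Of these 6, Plk2 and Perp held in every fit with a library left out.

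The KO effects of the 2 experiments were set against each other in 1 fit of all 16 libraries. The Bcl11b effect here includes 4-OHT and Cre activity. In early cultures the Bcl11b effect was the higher in 16 members and the lower in 2, against 14.4% and 12.2% of 11542 genes, with a median difference of 1.37 (all genes 0.04). The smallest p belonged to Zmat3 (difference 3.99 ± 0.36, adjusted p = 2.04e-06), Perp (4.95 ± 0.60, adjusted p = 3.52e-05), Rps27l (1.96 ± 0.26), Phlda3 (2.92 ± 0.39), Ccng1 (2.38 ± 0.33) and Bax (1.98 ± 0.29). Zmat3, Perp, Rps27l, Phlda3 and Bax rose in early Bcl11b KO and fell in early Gata3 KO. All 6 differences held whichever of the 16 libraries was left out. The experiments may differ in culture, Cre and drug, and the early Bcl11b WT libraries enter each of these differences.

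In late cultures the KO effect of 1 member, Mdm2, differed between the experiments (1.37 ± 0.26, adjusted p = 0.00691), against 2.29% of genes in that direction and 1.36% in the other. The call held whichever library was left out.

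**Figure D3:**
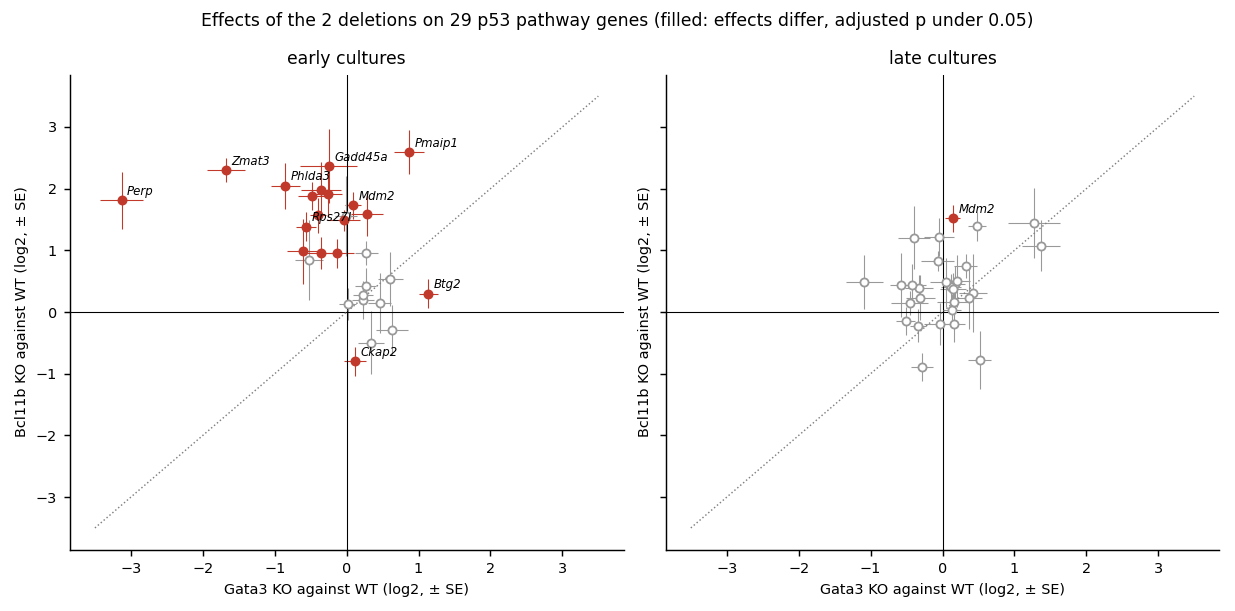
Effect of Bcl11b deletion (vertical) against effect of Gata3 deletion (horizontal) on 29 p53 pathway genes, in early (left) and late (right) cultures, as log2 fold changes with standard errors. Filled points are genes whose 2 effects differ (adjusted p under 0.05 in the 16-library fit), 9 of them with names, and the dotted line marks equal effects. In early cultures 16 filled points lie above the line and 2 below, and in late cultures Mdm2 is the filled point.

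Across single libraries, the median member was lowest in the early Bcl11b WT libraries, at -0.72 and -0.60 (log2, relative to the gene's mean over all 16 libraries). It was 0.27 and 0.33 in early Bcl11b KO, 0.52 and 0.43 in late WT and 0.90 and 0.74 in late KO. All 8 libraries of the Gata3 experiment lay between -0.44 and -0.08. For the members, the order in the Bcl11b experiment thus runs from early WT through early KO and late WT to late KO, without overlap. The 21 other p53 targets described below had a different order and were highest in early KO (0.85 and 0.83). They were at -0.36 and -0.001 in early WT, 0.05 and -0.02 in late WT and 0.28 and 0.36 in late KO.

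**Figure D4:**
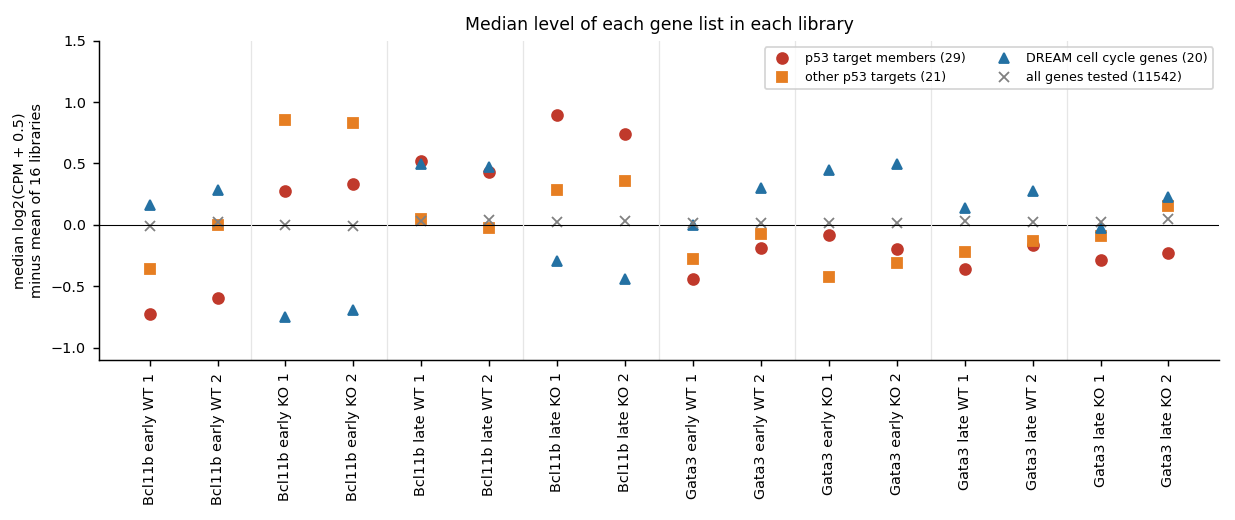
Median over genes of log2(CPM + 0.5) minus each gene's mean over 16 libraries, for the p53 target members, 21 other p53 targets, 20 DREAM cell cycle genes and all genes tested. Each mark is 1 library. The members are lowest in early Bcl11b WT (-0.72 and -0.60) and highest in late Bcl11b KO (0.90 and 0.74), and all genes stay near 0.

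Other p53 targets, from a list of 26 of which 21 were tested, were counted beside the members. In early Bcl11b KO 10 of them rose and 1 fell (11.0% and 10.1% of all genes). Casp1, the inflammasome protease (2.49 ± 0.32), Dcxr, a carbonyl reductase (3.03 ± 0.43), the death receptor gene Fas (3.21 ± 0.47) and Psrc1, a microtubule-associated protein (1.59 ± 0.23), had the smallest p. In late Bcl11b KO none of the 21 was called by edgeR, with a median change of 0.53. An unadjusted p under 0.05 was reached by 6 of them, and by 1410 of all 10870 genes. In Gata3 KO, 5 rose and 8 fell early (14.0% and 16.8% of all genes), and 6 rose and 1 fell late (8.44% and 5.59%). Lif, a cytokine, fell at both Gata3 stages (-4.08 ± 0.31 and -2.22 ± 0.28) and Tap1, a peptide transporter (1.59 ± 0.14 and 0.68 ± 0.14), and Cyfip2, an actin regulator (0.81 ± 0.11 and 0.88 ± 0.11), rose at both. Fas also rose at both (1.10 ± 0.23 and 1.65 ± 0.23). Dcxr fell early (-1.37 ± 0.19), and its late difference of -0.58 ± 0.18 missed the threshold (adjusted p = 0.0652).

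Of 17 genes of DNA damage signalling, which act upstream of p53 or beside it, none rose and 4 fell in early Bcl11b KO (11.0% and 10.1% of all genes), among them the kinase Atr (-1.66 ± 0.24), the adaptor Mdc1 (-0.96 ± 0.24) and the repair gene Brca1 (-0.92 ± 0.25). None was called late by edgeR, where 4 had an unadjusted p under 0.05 (1410 of all 10870 genes). In Gata3 KO 4 of 18 rose and 3 fell early, with Rad50 (-0.93 ± 0.12), Nbn (0.92 ± 0.14), Atm (0.99 ± 0.16) and Hipk2 (-0.83 ± 0.14) foremost, and 1 rose and 1 fell late (Hipk2, 1.04 ± 0.14, and Rad50, -0.67 ± 0.12). Of all genes 14.0% rose and 16.8% fell early and 8.44% rose and 5.59% fell late.

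Cell cycle genes of the DREAM complex, a repressor that p53 engages through p21, fell in both Bcl11b comparisons. Of 20 tested, 11 fell and none rose early (median -0.96), where 10.1% of all genes fell, led by the mitotic genes Aurkb (-1.75 ± 0.19), Ect2 (-1.99 ± 0.25) and Ccnb2 (-1.34 ± 0.17) and the proliferation marker Mki67 (-0.96 ± 0.13). In late cultures 8 fell and none rose (median -0.97), where 0.524% of all genes fell, led by Mki67 (-0.97 ± 0.13), Ccna2 (-1.09 ± 0.17), Ccnb2 (-1.07 ± 0.17) and Aurkb (-1.09 ± 0.18). In Gata3 KO 5 rose and 2 fell early (Kif23 -0.50 ± 0.10, Ccnb2 0.57 ± 0.12, Bub1 0.65 ± 0.14 and Prc1 0.41 ± 0.11 had the smallest p), and 2 fell late (Kif23 -0.78 ± 0.11 and Aurka -0.45 ± 0.12), against 14.0% and 16.8% of all genes early and 5.59% that fell late.

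Peaks of Bcl11b binding in late WT cells were assigned to the gene with the closest start, after peaks that overlapped an input peak were left out (2197 of 17459 Bcl11b peaks and 1413 of 28612 GATA3 peaks). Of the 29 members tested, 23 had a Bcl11b peak (50% of all genes tested in the Bcl11b experiment) and 21 a GATA3 peak (53.5%). A Bcl11b peak centred within 1 kb of the start was present at 14 members (31%) and a GATA3 peak at 5 (16.4%). Counting all 31 genes, 41 Bcl11b and 48 GATA3 peaks belonged to the set, and Ckap2, Ddb2 and Xpc had none of either. Each antibody had 1 library, so these counts carry no replicate error, and fold enrichments are the authors' deposited values.

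At the start of Gadd45a the peaks of both factors overlapped by 730 bases. The Bcl11b peak (chr6:67036343-67037990, 6.57-fold enriched) was centred 240 bases into the gene and the GATA3 peak (chr6:67037048-67037777, 5.90-fold) 6 bases before its start. Next by enrichment among Bcl11b peaks at starts was that of Bax (chr7:45466067-45467336, 5.05-fold, centred 196 bases past the start), and that peak covers the upstream sequence of Bax shown. The Bcl11b peak at the Mdm2 start (chr10:117709623-117711646, 3.16-fold) covers the upstream sequence of Mdm2 shown. At Cdkn1a, the main Bcl11b peak (chr17:29094293-29096199, 4.64-fold) lay 1478 bases past a start downstream of the sequence shown and overlapped a GATA3 peak by 841 bases.

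Over all positions, GATA3 peaks overlapped 16 of the 41 Bcl11b peaks, at 13 members, and the overlap at Gadd45a was the one within 1 kb of a start. The share over all 15262 Bcl11b peaks in use was not counted, so these overlaps are not a trait of the set. At Perp a single peak of each factor lay far past the start (Bcl11b at chr10:18889075-18889930, 5.48-fold, 44432 bases, and GATA3 at chr10:18889257-18889776, 5.13-fold). Upstream of Zmat3, 4 GATA3 peaks lay between 1242 and 33066 bases before the start, the most enriched at chr3:32381056-32381573 (6.27-fold), and the farthest overlapped a Bcl11b peak by 85 bases. Perp and Zmat3 are the members with the largest falls in early Gata3 KO. Btg2, which rose there, also had GATA3 peaks, among them those centred 768 bases (3.51-fold) and 13503 bases (5.25-fold) past its start. Whether binding has a part in these changes was not tested. At Mdm2 the factors overlapped at 2 sites, 1 centred 32270 bases downstream of the start, past the end of the gene (Bcl11b 4.45-fold, GATA3 5.13-fold), and 1 upstream of it (Bcl11b 1.83-fold). Sesn1, whose RNA was not called in any KO comparison, had the most enriched GATA3 peak of the set (chr10:41936993-41937912, 9.48-fold), and Gdf15, which had almost no reads, had the most enriched Bcl11b peak (chr8:70629434-70630653, 9.41-fold).

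Of the 14 members with a Bcl11b peak within 1 kb of the start, 9 rose and none fell in early Bcl11b KO (median 1.57). Of the 15 others, 7 rose and 1 fell (median 0.30). In late Bcl11b KO the counts were 2 and 1 rises, with medians of 0.45 and 0.37. Of all genes tested, 11.0% rose and 10.1% fell early, and 1.69% rose late. The shares among all genes with and without such a peak were not counted. These splits are descriptions, and the difference between the 2 sets of members was not tested.

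**Figure D5:**
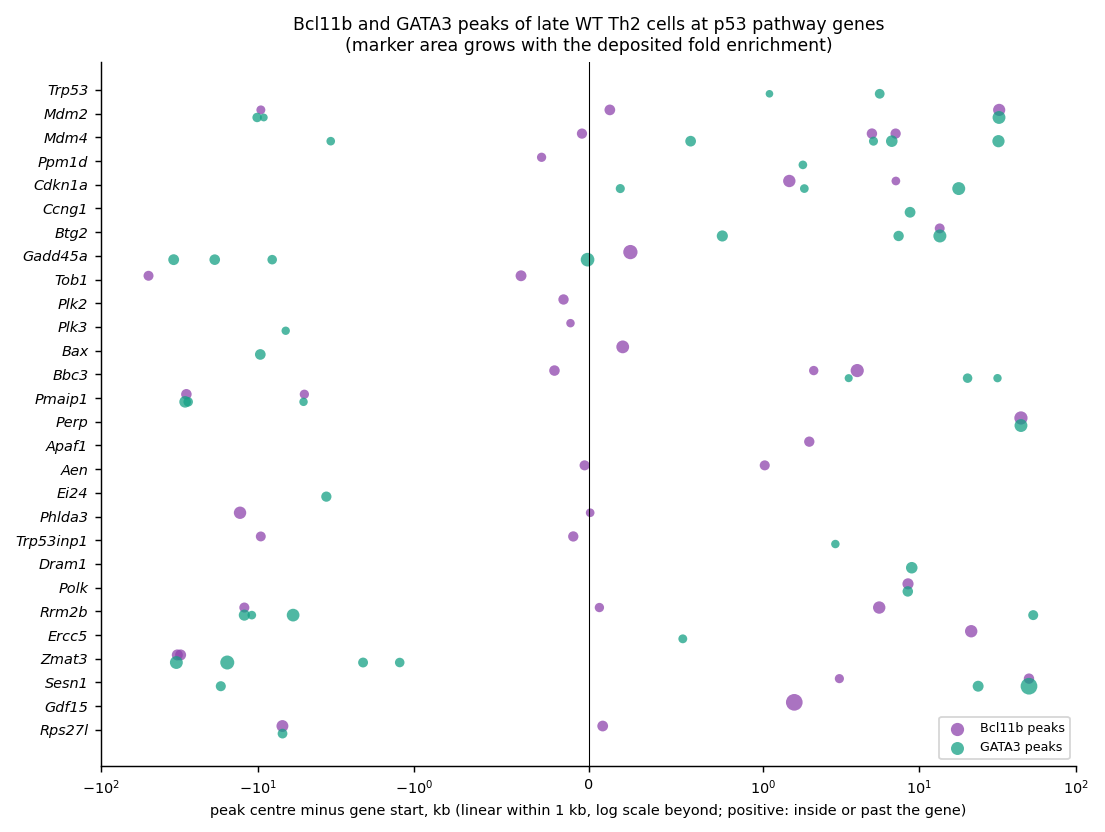
Position of Bcl11b and GATA3 peaks relative to the start of their closest gene, for the 28 members with a peak (rows). The horizontal axis is in kb, linear within 1 kb and logarithmic beyond, and marker area grows with the deposited fold enrichment. Within 1 kb of the start lie 14 Bcl11b peaks and 5 GATA3 peaks, and both factors have a distal peak at Perp.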

How the data were processed

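Raw read counts per RefSeq transcript were deposited by the authors without normalization, beside the authors' RPKM values (reads per kb, scaled to depth). Per the labels' protocols, 10 ng of RNA was amplified with NuGEN Ovation V2. Per the submitters' processing notes, the files involve mm10, MACS 1.4.2, TopHat2 2.0.13, CASAVA 2.18, Novoalign and Bowtie, with no roles stated. The sources used here state no counting tool, strand or treatment of reads with several matches, so overlapping genes such as Ddb2 and Acp2 may share reads. Per the file headers, each peak has the authors' deposited fold enrichment (a ratio), a score made from -log10 of its p-value and an FDR in percent, and the peak caller's control is not stated there.

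Per symbol, the transcript with the most reads was used. Genes reaching an RPKM of 1 in 2 or more of 8 libraries were tested with edgeR 4.0.16 (TMM, quasi-likelihood F test, 4 groups per experiment, Benjamini-Hochberg over all genes, threshold 0.05). That left 10870 genes (Bcl11b), 10601 (Gata3) and 11542 (all 16 libraries). Biological coefficients of variation were 0.281, 0.125 and 0.217. DESeq2 1.42.0, limma 3.58.1 on log2(RPKM + 1), a replicate block, other scalings and filters and fits with a library left out were alternatives. The code was tested on simulated data. R was 4.3.3 and Python 3.11.15. Replicate pairs were checked against counting noise, and none agreed within it.

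The members, lists and tests were chosen with earlier results of these data known. For KO comparisons the text names every called member plus Trp53, Mdm2, Cdkn1a, Bax and Bbc3, for other comparisons at most 6 called members (by smallest p), and for other lists at most 4 called genes, of which 1 is not reported here. Mdm4, Plk3, Tob1, the repair genes and other uncalled members are named beyond this rule so that members are accounted for. Promoter windows come from RefSeq GRCm38.p6. Only peaks not overlapping input peaks by at least 1 base were used. The early Bcl11b WT libraries were left out of a fit as an alternative added after the data were seen.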

Additional observations from a re-analysis of the deposited data

Results flagged for a closer look

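In the Bcl11b experiment the late KO effect differed from the early KO effect, by the edgeR test of the difference itself, in 4 members: Zmat3 (late minus early effect -2.16), Bax (-1.79), Rps27l (-1.53) and Ccng1 (-1.49). Each had risen in early KO cultures. All 4 differences use the early WT libraries with few gene reads, and 3 of them (Bax, Rps27l and Ccng1) were lost in some fits with a library left out.

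In the Gata3 experiment the same test passed for Perp (2.04), Plk2 (1.73) and Btg2 (-0.66), each lost in at least 1 fit with a library left out. Perp fell less in late than in early KO, Plk2 rose late, and Btg2 rose less late than early. The early and late WT libraries of this experiment resembled each other by replicate number.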

How the results depend on the processing

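Counts of called members (in either direction) depended on the fit as follows. In early Bcl11b KO the 17 calls became 10 with only the 4 libraries compared, and ranged from 14 to 17 with a library left out. In late Bcl11b KO the 3 calls became 6 in DESeq2, 1 in limma, 10 with only the 4 libraries compared, 6 with all 16 libraries and 6 without the early WT libraries, and ranged from 0 to 5 with a library left out (0 without late WT replicate 1, late WT replicate 2 or late KO replicate 1). The Bcl11b stage difference (4) became 7 in DESeq2 and ranged from 1 to 9, Bcl11b late against early WT (16) from 11 to 17 and late against early KO (12) from 4 to 14. In Gata3 KO, late (6) became 3 in limma, 2 with only the 4 libraries compared and 1 with all 16 libraries. Leaving out a library gave 3 to 10 early (8), 1 to 7 late, 0 to 5 for the stage difference (3), 3 to 7 for late against early KO (7) and 0 for late against early WT. The Gata3 stage difference became 5 in DESeq2 and 8 with no filter. The early difference between the experiments' KO effects (18) ranged from 12 to 20, and the late one (1) from 1 to 4, and was 4 in DESeq2. With the top 50% of peaks by score, members with a closest Bcl11b peak went from 23 to 15, and with one within 1 kb from 14 to 8. For GATA3 they went from 21 to 11 and from 5 to 3, and within 5 kb there were 11. Among the named members' 1286 values under an alternative, 1126 kept direction and side of the threshold, 141 lost their call (112 of these with a library left out), 14 gained one and 5 changed sign: Ckap2 in early Bcl11b KO (0.30 in limma), Trp53 in early Bcl11b KO (-0.49 to 0.59 with a library left out, 2 of them below 0), Bax in late Bcl11b KO (-0.42 to 0.042, above 0 without late WT replicate 2) and Trp53 in late Gata3 KO (-0.081 to 0.37, below 0 without late KO replicate 2). The causes were not tested. With 2 libraries a group, leaving 1 out assumes that the lone library varies like the others.

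Same-numbered libraries share only a number in the labels. Their deviations from group means correlated by -0.07 to 0.28 in the Bcl11b experiment and by 0.14 to 0.55 in the Gata3 experiment, as a hint from the data and not from the design. With a replicate block the calls were 17 (early Bcl11b), 3 (late Bcl11b), 13 (early Gata3, 5 rises and 8 falls), 10 (late Gata3, 4 rises and 6 falls), 2 (Bcl11b stage difference) and 8 (Gata3 stage difference), and 18 and 1 for the early and late differences between the experiments' KO effects.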
